A study of Mus musculus with 24 samples.

Results

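The adenosine genes examined here were 8 rows of the deposited expression tables, picked by gene name out of the 24340 genes that all 6 tables hold. They are the 4 adenosine receptors Adora1, Adora2a, Adora2b and Adora3, the ectonucleotidase Nt5e, the adenosine-removing enzymes Ada and Adk, and the equilibrative nucleoside transporter Slc29a1. All 8 names were found, each with a value in every group. RNA-seq was made from the striatum of 24 male mice, which were hemizygous R6/1 animals or their wild type littermates on a C57BL/6J background. The R6/1 transgene carries exon 1 of the human huntingtin gene with an expanded CAG repeat, under the human promoter, and models Huntington's disease by adding a mutant fragment to the intact mouse gene. RGFP109, an inhibitor of the histone deacetylases HDAC1 and HDAC3, was injected intraperitoneally at 30 mg/kg on 5 days per week for 3 weeks, and tissue was taken 18 h after the last dose. Vehicle animals received the DMSO and saline solvent on the same schedule. Treatment began at 11 to 14 weeks of age and ended at 14 to 17 weeks. The groups were WT-vehicle (5 libraries), R6/1-vehicle (6), WT-RGFP109 (6) and R6/1-RGFP109 (7).

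Adenosine is formed outside the cell when ectonucleotidases strip phosphates from ATP, ADP and AMP, and it crosses membranes through nucleoside transporters. Inside the cell it is phosphorylated back to AMP by adenosine kinase or deaminated to inosine by adenosine deaminase. The A1 receptor, encoded by Adora1, lowers cyclic AMP, whereas the receptor encoded by Adora2a raises it, and in the striatum the latter is concentrated in the projection neurons of the indirect pathway, where it opposes the dopamine D2 receptor. The receptor encoded by Adora2b also raises cyclic AMP but needs more adenosine, and the A3 receptor, encoded by Adora3, lowers it.

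The deposited tables give 1 pooled FPKM per group (fragments scaled by transcript length and by the mapped fragments of the library), with no value per mouse. Values of single mice were not used here, and neither were the p-values and q-values that the authors computed and deposited. The text therefore gives no p-value or standard deviation, and whether any difference below exceeds the animal-to-animal spread was not tested. Differences are stated as log2 ratios of group FPKM after adding 0.05 FPKM, a scale that understates differences of low genes. A gene was called past the fold when this ratio exceeded 0.5 in size, among genes above 0.1 FPKM in at least 1 of the groups compared. Each group appears in 3 tables that the authors normalised separately, and its values differed between tables by a median factor of at most 1.04. Levels below are geometric means over those 3 tables, and each ratio was taken within the table of its own pair of groups.

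The regions just upstream of 3 adenosine genes are printed because these genes took different positions between the genotypes. Adora1 was lower in R6/1 striatum, Ada was the member that was higher, and Adk was nearly level. Each run holds the 250 bases before the outermost RefSeq start (GRCm38.p6), 5′ to 3′ on the gene's own strand, in lower case. Capitals mark the GC box (GGGCGG or its reverse complement CCGCCC) and the CRE half-site (TGACG or CGTCA). Adora1 lies at chr1:134235458-134235707 on the minus strand, Ada at chr2:163750240-163750489 on the minus strand and Adk at chr14:21052324-21052573 on the plus strand.
Adora1: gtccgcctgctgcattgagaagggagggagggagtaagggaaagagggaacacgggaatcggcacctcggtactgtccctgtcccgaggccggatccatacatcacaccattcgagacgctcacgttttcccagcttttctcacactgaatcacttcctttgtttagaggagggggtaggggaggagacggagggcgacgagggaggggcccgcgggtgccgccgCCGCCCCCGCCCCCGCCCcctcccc
Ada: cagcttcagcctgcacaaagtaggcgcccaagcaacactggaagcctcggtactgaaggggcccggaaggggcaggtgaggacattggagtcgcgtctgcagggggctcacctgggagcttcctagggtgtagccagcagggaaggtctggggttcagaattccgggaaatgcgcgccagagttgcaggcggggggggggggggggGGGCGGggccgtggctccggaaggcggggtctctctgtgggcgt
Adk: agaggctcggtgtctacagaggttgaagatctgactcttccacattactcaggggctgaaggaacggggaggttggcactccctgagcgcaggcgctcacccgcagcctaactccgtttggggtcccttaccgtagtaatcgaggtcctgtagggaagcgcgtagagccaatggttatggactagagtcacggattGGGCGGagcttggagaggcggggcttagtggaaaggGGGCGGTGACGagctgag
Such windows were matched for 7 of the 8 genes, with Adora2a the gene that had no entry. The Adora1 window held 3 GC boxes, all close to the start. The Ada window held 1, after a run of G, and the Adk window held 2 together with 1 CRE half-site, which adjoins the second GC box without overlapping it. In the other outermost windows there were 6 GC boxes for Adora2b, 4 for Nt5e and 0 for both Adora3 and Slc29a1. In the outermost windows a GC box was thus found in 5 of 7 members and a CRE half-site in 1 of 7, and with the windows of inner starts added, in 6 and 2, where Slc29a1 joined both. Of all 32851 windows of the same length, inner starts included, 32.7% held a GC box and 17.8% a CRE half-site, per window and not per gene. These are letter matches and not evidence of binding.

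Adora2a was the most abundant adenosine gene of wild type striatum. It was listed at 131 FPKM in WT-vehicle and 117 FPKM in WT-RGFP109, against 34.0 FPKM in R6/1-vehicle and 31.4 FPKM in R6/1-RGFP109. The wild type groups lay far above the R6/1 groups, and the treated group was the lower within each genotype. Its level exceeded that of 97.7% of genes in WT-vehicle and of 88.7% in R6/1-vehicle. The gene spans chr10:75316877-75334792 (mm10). Within the table of the vehicle groups the values were 132 FPKM in WT-vehicle and 33.6 FPKM in R6/1-vehicle, a log2 ratio of -1.97. Only 0.99% of the 16972 genes compared had a lower ratio. In bulk tissue, fewer cells of a type and less RNA per cell cannot be told apart.

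**Figure D1:**
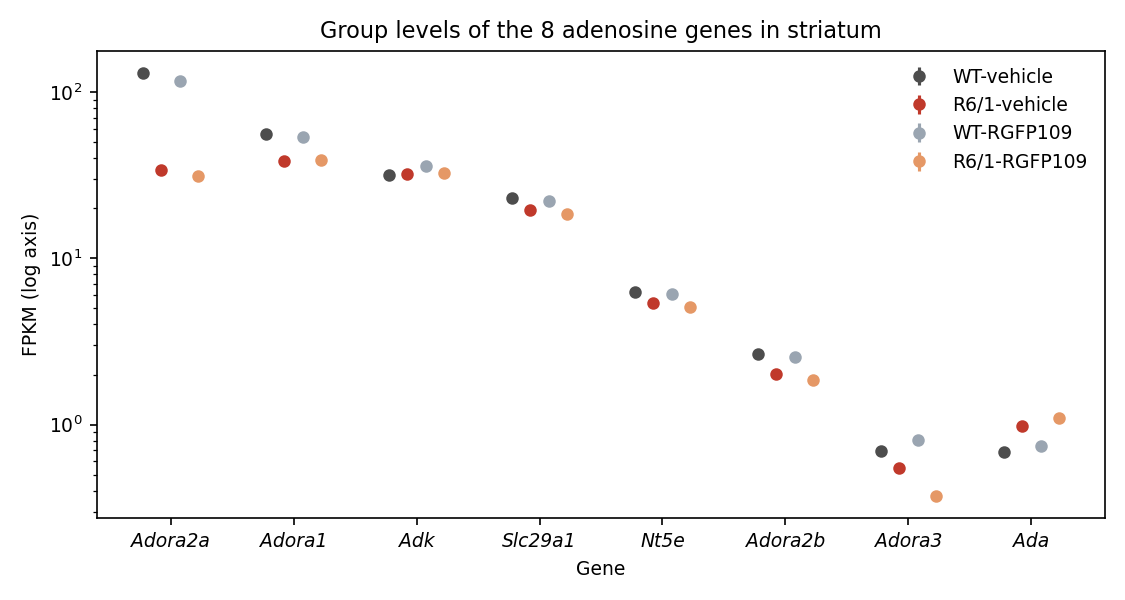
Group FPKM (log axis) of each adenosine gene in the 4 groups, with 1 point per group and bars for the range over the 3 tables, which are mostly smaller than the points. Adora2a stands at 131 and 117 FPKM in the wild type groups and at 34.0 and 31.4 FPKM in the R6/1 groups, while Adk stays between 31.8 and 35.9 FPKM.

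Adora1, the Gi-coupled A1 receptor that dampens transmitter release, was the second most abundant member in wild type striatum and the most abundant in R6/1 striatum. Its levels were 55.9 FPKM in WT-vehicle, 53.9 FPKM in WT-RGFP109, 38.4 FPKM in R6/1-vehicle and 39.0 FPKM in R6/1-RGFP109. The wild type groups were again the higher, by less than for Adora2a. The log2 ratio between the vehicle groups was -0.57, from 56.5 FPKM in WT-vehicle to 37.9 FPKM in R6/1-vehicle. Its deposited locus, chr1:134193448-134235457, also takes in Mybph, which was listed at no more than 0.315 FPKM in any group, so that reads of the pair may have been divided uncertainly at that low level.

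Adora2b, the low-affinity Gs-coupled receptor, was listed at 2.66 FPKM in WT-vehicle, 2.55 FPKM in WT-RGFP109, 2.02 FPKM in R6/1-vehicle and 1.85 FPKM in R6/1-RGFP109 (chr11:62248984-62266452). The order of the groups was the same as for Adora2a. Its log2 ratio between the vehicle groups was -0.42, which did not pass the fold. Adora3, the Gi-coupled A3 receptor, was the rarest receptor, at 0.693 FPKM in WT-vehicle, 0.813 FPKM in WT-RGFP109, 0.546 FPKM in R6/1-vehicle and 0.373 FPKM in R6/1-RGFP109. The authors' software marked it as having too few alignments to test in 4 of the 6 tables. Its deposited interval, chr3:105870858-105924044, also holds Tmigd3, listed at 0.00559 to 0.166 FPKM, and the division of reads between these genes is uncertain.

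The 4 receptors added up to 190.0 FPKM in WT-vehicle, 74.9 FPKM in R6/1-vehicle, 175 FPKM in WT-RGFP109 and 72.6 FPKM in R6/1-RGFP109. Adora2a made up 68.8% of this sum in WT-vehicle and 67.2% in WT-RGFP109, but 45.3% in R6/1-vehicle and 43.2% in R6/1-RGFP109. The level of Adora2a over that of Adora1 was 2.34 in WT-vehicle and 0.885 in R6/1-vehicle, and 2.17 and 0.805 in the corresponding RGFP109 groups, so that the more abundant receptor differed between the genotypes. Of the 115 FPKM by which the receptor sums of the vehicle groups differed, Adora2a accounted for 84.1% and Adora1 for 15.2%. These are shares of RNA and not of receptor protein.

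Among the enzymes, Adk was the abundant one. Adenosine kinase, the main route by which adenosine is cleared inside brain cells, was listed at 31.8 FPKM in WT-vehicle, 32.2 FPKM in R6/1-vehicle, 35.9 FPKM in WT-RGFP109 and 32.5 FPKM in R6/1-RGFP109 (chr14:21052574-21448569). Within the table of the vehicle groups it was listed at 32.2 FPKM in WT-vehicle and 31.8 FPKM in R6/1-vehicle, a log2 ratio of -0.02, the smallest in size of the 8 genes. The sign is opposite to that of the means over tables, and the groups differ by less than the tables do, so no direction is given. The WT-RGFP109 group was its highest value.

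Ada, adenosine deaminase, stood at 0.68 FPKM in WT-vehicle, 0.748 FPKM in WT-RGFP109, 0.984 FPKM in R6/1-vehicle and 1.09 FPKM in R6/1-RGFP109 (chr2:163726571-163750239). It was the sole member with higher values in both R6/1 groups than in both wild type groups. Its log2 ratio between the vehicle groups was 0.47, just short of the fold, and it was marked as having too few alignments to test in 1 of 6 tables. The level of Adk over that of Ada was 46.8 in WT-vehicle and 32.7 in R6/1-vehicle, and 48.1 and 29.8 in the RGFP109 groups, a measure that rests on the low level of Ada.

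Nt5e, the ecto-5′-nucleotidase CD73 that forms adenosine from AMP, was listed at 6.29 FPKM in WT-vehicle, 5.41 FPKM in R6/1-vehicle, 6.12 FPKM in WT-RGFP109 and 5.08 FPKM in R6/1-RGFP109 (chr9:88327609-88372089). Slc29a1, the transporter ENT1 that equilibrates adenosine across the plasma membrane, stood at 23.2 FPKM in WT-vehicle, 19.4 FPKM in R6/1-vehicle, 22.0 FPKM in WT-RGFP109 and 18.4 FPKM in R6/1-RGFP109 (chr17:45585200-45599603). In both genes the R6/1 groups were the lower ones. The log2 ratios between the vehicle groups were -0.25 for Nt5e and -0.28 for Slc29a1, within the fold.

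By level, the order in the wild type groups was Adora2a, Adora1, Adk, Slc29a1, Nt5e, Adora2b, Adora3 and Ada. In the R6/1 groups Adora1 came first and Ada moved ahead of Adora3. Adora2a was second in R6/1-vehicle, at 34.0 FPKM beside 32.2 FPKM for Adk, and below Adk in R6/1-RGFP109, at 31.4 FPKM beside 32.5 FPKM. The order within each group was the same in each of its 3 tables. These hold the same pooled libraries on scales that differ by a nearly constant factor, so this is no check on close ranks. Whether close neighbours such as Adora2a and Adk in R6/1 striatum, or Adora3 and Ada in wild type striatum, differ beyond the spread between mice was not tested.

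The genotype comparison in vehicle-treated mice asks how the levels of these genes differ between R6/1 and wild type striatum. Adora1 and Adora2a were past the fold, both lower in R6/1, which is 2 of 8 members. Over all 16972 genes 19.2% were past the fold, 13.4% lower and 5.84% higher, so that the count by itself lies near this background. The median log2 ratio was -0.32 over the members and -0.02 over all genes. Adora2a was the only member whose ratio exceeded 1 in size.

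**Figure D2:**
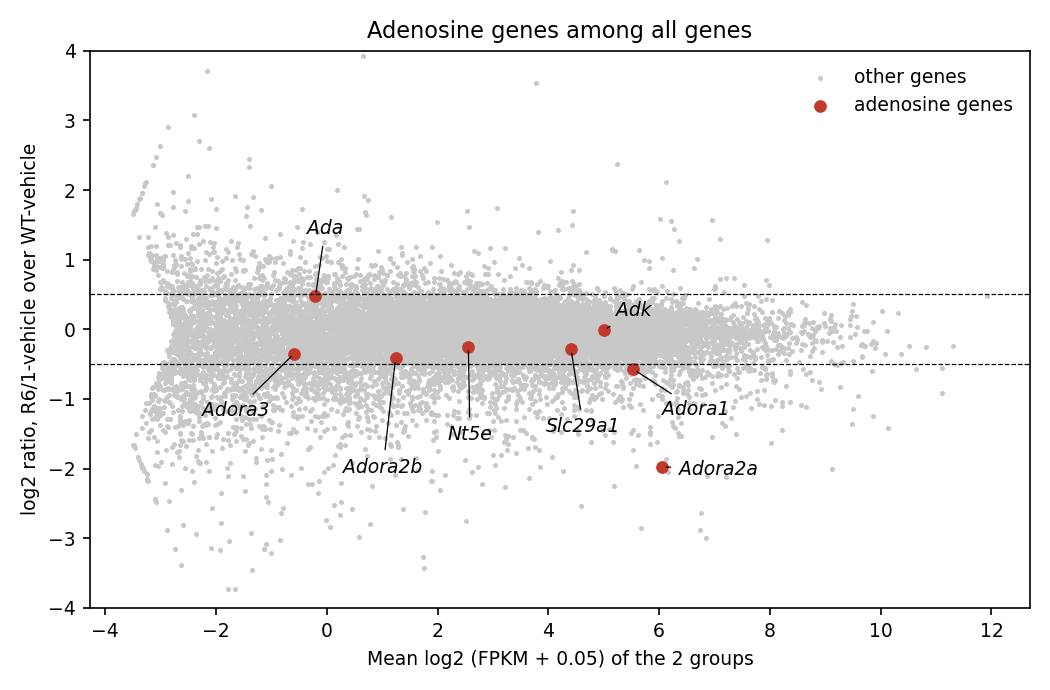
The log2 ratio of R6/1-vehicle over WT-vehicle against the mean log2 level of the 2 groups, with 1 grey point per gene and the 8 adenosine genes in red. Dashed lines mark the fold of 0.5, and 178 of 16972 genes lie beyond the vertical axis limits of 4. Adora2a is at -1.97, with 0.99% of the genes lower, and 6 members lie between the lines.

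Between the RGFP109 groups, the same comparison gave 3 of 8 members past the fold, all lower in R6/1, where 17.1% of 16954 genes were past it, 11.7% lower and 5.39% higher. Adora2a had a log2 ratio of -1.93, from 119 FPKM in WT-RGFP109 to 31.1 FPKM in R6/1-RGFP109. Adora3 had -1.06, from 0.824 to 0.37 FPKM, the lowest level among the members. Adora1 was at -0.501, barely past the fold. The ratios of the other members were -0.49 for Adora2b, 0.49 for Ada, -0.30 for Nt5e, -0.29 for Slc29a1 and -0.18 for Adk.

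RGFP109-treated R6/1 mice were also set against WT-vehicle, which asks how far the treated mutants remained from vehicle-injected wild type. Here 5 of 8 members were past the fold, with 4 lower and 1 higher, beside 19.2% of 16982 genes, 13.8% lower and 5.42% higher. Adora2a was at -2.09, Adora3 at -0.84, Adora1 at -0.55 and Adora2b at -0.54, and Ada was at 0.61. The remaining values were -0.36 for Slc29a1, -0.34 for Nt5e and 0.00 for Adk, which was listed at 32.2 FPKM in both groups. This comparison shares WT-vehicle with the vehicle genotype comparison and R6/1-RGFP109 with the RGFP109 one, so that the 3 are not independent.

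Few genes of any kind were past the fold between RGFP109 and vehicle, so a count of 0 among 8 members says little about them. In R6/1 mice, 0 of 8 members were past the fold between RGFP109 and vehicle, where 5.77% of 16840 genes were past it, 3.14% lower and 2.62% higher. Adora2a was listed at 32.0 FPKM in R6/1-RGFP109 and 34.7 FPKM in R6/1-vehicle, a log2 ratio of -0.12, which points away from the wild type level. Adora1 was at 0.02, from 39.3 to 39.8 FPKM. Adora3 came closest to the fold, at -0.496, from 0.558 to 0.381 FPKM, with 3.18% of the genes lower. The other ratios ran from -0.13 for Adora2b to 0.14 for Ada.

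In wild type mice 0 of 8 members were past the fold as well, beside 8.11% of 16957 genes, 4.92% lower and 3.19% higher. Adora2a was listed at 114 FPKM after RGFP109 and 128 FPKM after vehicle, a log2 ratio of -0.16. Adora3 had the highest ratio, 0.21, followed by Adk at 0.17 and Ada at 0.13. The other ratios lay between -0.08 for Slc29a1 and -0.04 for Nt5e.

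**Figure D3:**
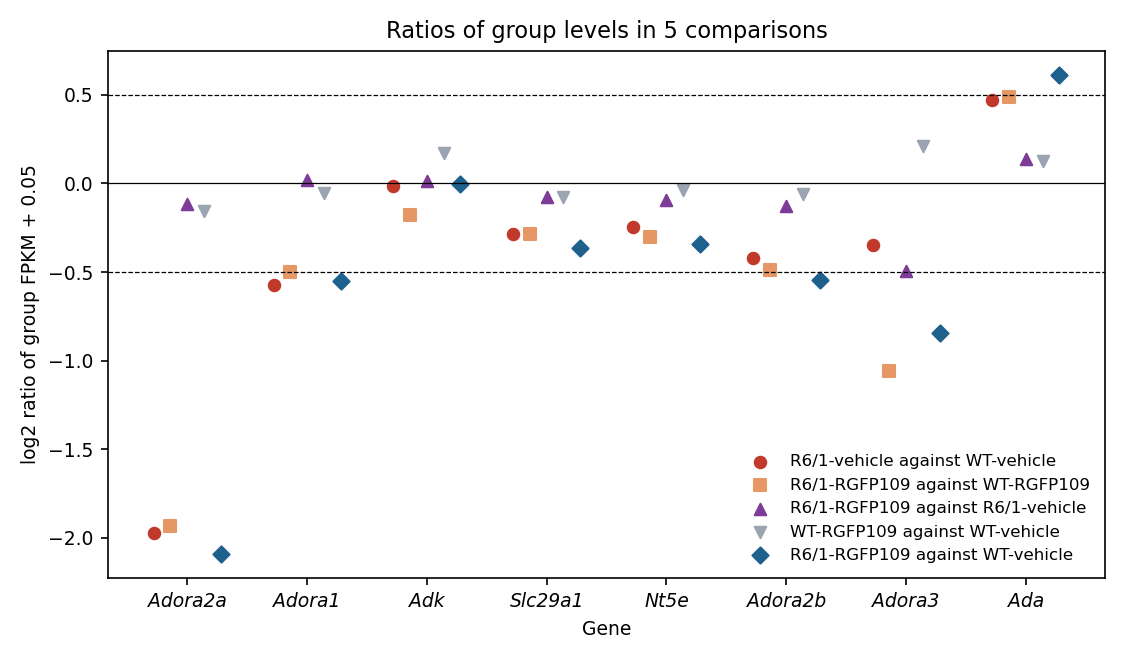
The log2 ratio of group FPKM, with 0.05 FPKM added, for each adenosine gene in the 5 comparisons, with dashed lines at the fold of 0.5. The 3 comparisons of R6/1 with wild type put Adora2a between -2.09 and -1.93, and both comparisons of RGFP109 with vehicle keep all 8 genes within the lines.

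The difference between the RGFP109 effects of the genotypes, R6/1 minus wild type on the log2 scale, exceeded 0.5 in size for 1 of 8 members and for 9.03% of 16534 genes. That member was Adora3, at -0.71. Its group values were lower after RGFP109 in R6/1 mice and higher in wild type mice. They ran from only 0.381 to 0.792 FPKM, and in both comparisons the authors' software marked it as having too few alignments to test. For Adora2a the difference was 0.04 and for Adora1 0.07, with the others between -0.16 for Adk and 0.01 for Ada.

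The wider adenosine pathway was covered by 27 gene names in 5 lists. Of these 26 were in the tables, with Acp3 the name that was absent although the older name Acpp of the same phosphatase was present. Between the vehicle groups 22 passed the filter on low values, and 1 was higher and 2 were lower past the fold, beside the background of 19.2%. The higher gene was Adal, an adenosine deaminase-like enzyme that acts on methylated AMP, at 12.9 FPKM in R6/1-vehicle and 7.55 FPKM in WT-vehicle, a log2 ratio of 0.77. The lower ones, the concentrative nucleoside transporters Slc28a1 (-1.91) and Slc28a3 (-0.63), were listed below 0.2 FPKM in both groups. They passed the filter only through WT-vehicle, at 0.194 and 0.135 FPKM beside 0.0149 and 0.0697 FPKM in R6/1-vehicle. Neither could therefore have come out higher, and no conclusion is drawn from their direction. Adal was also higher between the RGFP109 groups (0.61) and between R6/1-RGFP109 and WT-vehicle (0.71).

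Of the ectoenzymes that break down ATP, ADP and AMP, 3 of the 5 that passed the filter had lower values in R6/1-vehicle than in WT-vehicle, but 0 were past the fold between the vehicle groups, with a median log2 ratio of -0.36. Entpd2, which converts ATP to ADP, was at -0.48, from 11.0 FPKM in WT-vehicle to 7.87 FPKM in R6/1-vehicle. Alpl, an alkaline phosphatase that also releases adenosine from AMP, was at -0.41 and Entpd1, which takes ATP down to AMP, was at -0.36. Between the RGFP109 groups Alpl (-0.63) and Entpd1 (-0.51) were past the fold, and between R6/1-RGFP109 and WT-vehicle Alpl (-0.59) and Entpd2 (-0.52) were.

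In the list of intracellular nucleotidases, AMP deaminases and purine enzymes, Adal was the only gene past the fold between the vehicle groups. Of 8 that passed the filter, the other 7 lay within the fold between the vehicle groups, and Hprt, which salvages hypoxanthine, was the next highest at 0.33, from 103 FPKM to 130 FPKM. All 3 genes of the S-adenosylhomocysteine list, Ahcy and the Ahcy-like genes Ahcyl1 and Ahcyl2, were within the fold in each of the 5 comparisons. Whether the products of the Ahcy-like genes form adenosine was not examined. Dpp4, the surface protein that binds adenosine deaminase in man, was at -0.28 between the vehicle groups, at 0.253 FPKM in R6/1-vehicle.

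Past the fold after RGFP109 were 0 of 20 pathway genes in R6/1 mice and 3 of 22 in wild type mice, beside 5.77% and 8.11% of all genes. The 3 were all lower and all transporters, Slc29a4 at -0.60, Slc28a1 at -0.53 and Slc28a3 at -1.51, the last pair at very low levels. Slc28a3, at 0.13 FPKM in WT-vehicle and 0.0131 FPKM in WT-RGFP109, passed the filter only through WT-vehicle and could not have come out higher. In R6/1 mice Slc28a1 and Slc28a3 did not pass the filter, so the counts of the genotypes cannot be set against each other. Between R6/1-RGFP109 and WT-vehicle the same 3 were lower, at -0.56, -1.41 and -1.71, and Slc28a1 was at -0.87 between the RGFP109 groups. In these comparisons too, Slc28a1 and Slc28a3 passed the filter only through the wild type group. The markers of choroid plexus, the secretory tissue of the ventricles, were lower after RGFP109 in both genotypes (5 of 5 past the fold in each), and their part in the transporter values was not tested. Their summed level was 39.5 FPKM in WT-vehicle, 14.3 FPKM in WT-RGFP109, 23.6 FPKM in R6/1-vehicle and 9.12 FPKM in R6/1-RGFP109.

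The tissue label was checked against marker lists. Markers of striatal projection neurons were abundant in every group, with Ppp1r1b (DARPP-32) at 1150 FPKM in WT-vehicle and 447 FPKM in R6/1-vehicle within the vehicle table. Markers of other regions and cell types were present too. The neocortical list summed to 339 FPKM in WT-vehicle, 192 FPKM in R6/1-vehicle, 314 FPKM in WT-RGFP109 and 244 FPKM in R6/1-RGFP109, and no marker list had a gene at 0. The human transgene was not checked in these tables.

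Adora2a was then set beside the other genes of its own neuron type. Of the 5 indirect-pathway markers, 4 were lower past the fold in R6/1-vehicle than in WT-vehicle, beside 13.4% of all genes. They were Penk (proenkephalin) at -2.01, Gpr6 at -1.51, Gpr52 at -1.29 and Drd2 (the D2 receptor) at -1.25. The fifth, the transcription factor Sp9, was at -0.02. Summed over the list, the level was 1290 FPKM in WT-vehicle, 360 FPKM in R6/1-vehicle, 1270 FPKM in WT-RGFP109 and 322 FPKM in R6/1-RGFP109. The level of Adora2a over that of Penk was 0.119 in WT-vehicle and 0.122 in R6/1-vehicle, nearly the same. Over Drd2 it was 1.35 and 0.82, and over Sp9 it was 19.1 and 4.91, so that Adora2a was lower relative to those genes too. Direct-pathway markers were mixed, with 2 lower and 1 higher past the fold of 5, beside 13.4% and 5.84% of all genes. Their median was -0.47, and 4 of the 5 were below 0.

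Adora1, which many cell types express, was set beside the other marker lists, of which some but not all had lower values in R6/1-vehicle. Beside the 13.4% of all genes that were lower past the fold, 5 of 5 neocortical markers were, with a median log2 ratio of -0.69, as were 3 of 5 oligodendrocyte markers (-0.84) and 1 of 6 astrocyte markers (-0.36), the last near the share of all genes. The astrocyte list summed to 633 FPKM in WT-vehicle, 454 FPKM in R6/1-vehicle, 641 FPKM in WT-RGFP109 and 452 FPKM in R6/1-RGFP109. As for Adora1, both wild type groups were above both R6/1 groups. That order was not particular to astrocytes. The summed microglial, endothelial, oligodendrocyte, neocortical and projection neuron lists had it too, whereas the choroid plexus and meningeal fibroblast lists did not. The part of these cell types in the Adora1 values was not tested. Between R6/1-RGFP109 and R6/1-vehicle all 5 neocortical markers had higher values after RGFP109, with a median of 0.50, where Adora1 was at 0.02. Of these, 3 were past the fold, beside 2.62% of all genes that were higher past it. Microglial markers had a median of -0.28 between the vehicle groups, with 0 of 5 past the fold. Endothelial markers (median -0.25) and meningeal fibroblast markers (median 0.23) each had 1 of 4 lower past the fold, choroid plexus markers had 4 of 5 (-0.84), and the markers shared by both kinds of projection neuron had 4 of 5 (-1.36).

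**Figure D4:**
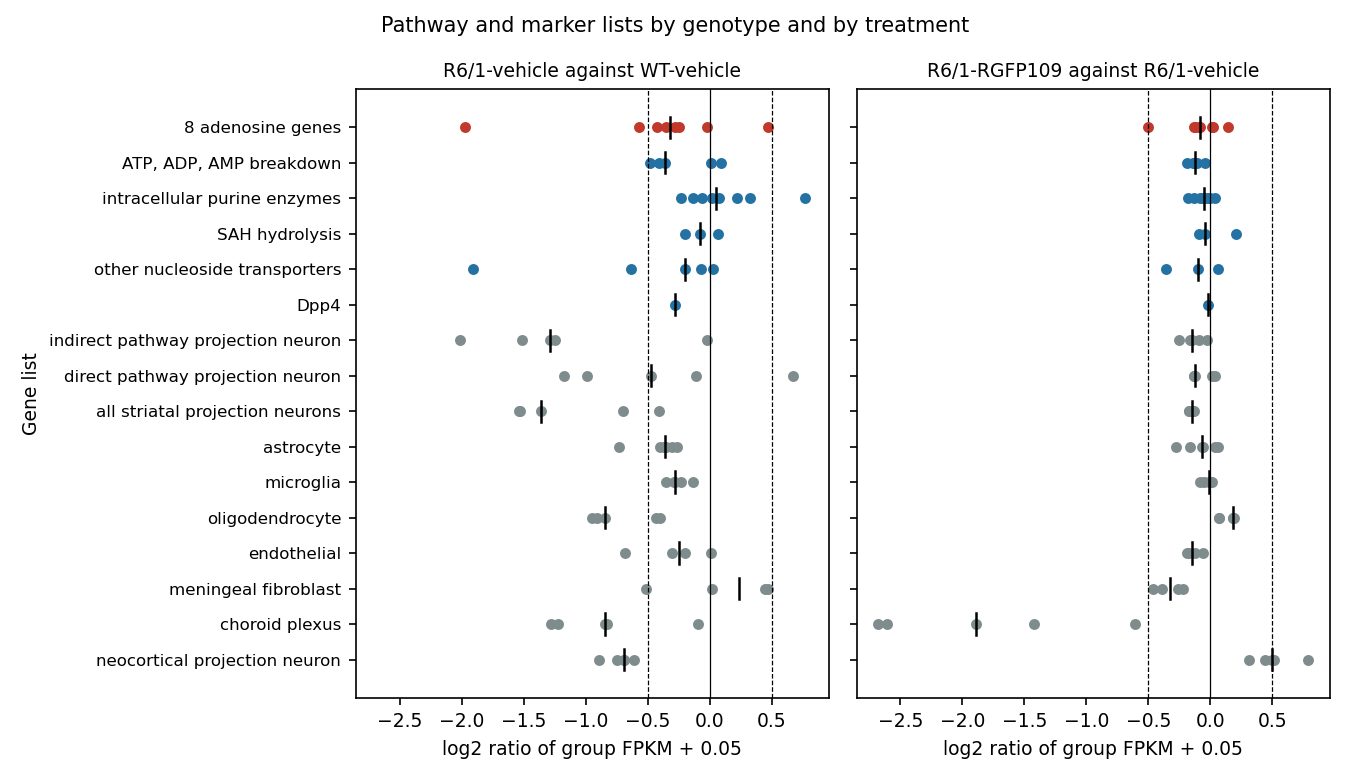
Each point is the log2 ratio of 1 gene, with gene lists in rows, black ticks for list medians and dashed lines at the fold of 0.5 (left, R6/1-vehicle over WT-vehicle; right, R6/1-RGFP109 over R6/1-vehicle). The indirect-pathway markers have a median of -1.29 on the left, and the choroid plexus markers have a median of -1.89 on the right, where all 8 adenosine genes are within the fold.

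The genes whose pattern over the 4 groups was most like that of Adora2a were found by the Euclidean distance of centred log2 levels, among 12995 genes at 1 FPKM or more in every group. They were Cd4 (distance 0.033), 1700001O22Rik (0.122), the potassium channel gene Kcnh4 (0.126), the kinase gene Hipk4 (0.147) and Penk (0.18). Cd4, known as a coreceptor of T cells, was listed at 28.3 FPKM in WT-vehicle, 7.31 FPKM in R6/1-vehicle, 24.8 FPKM in WT-RGFP109 and 6.83 FPKM in R6/1-RGFP109. For Adora1 the nearest were Eva1a (0.009), the glycolytic enzyme gene Aldoc (0.017), Vrk1 (0.019), Ints7 (0.019) and Nphp4 (0.021). Aldoc stood at 466 FPKM in WT-vehicle, 321 FPKM in R6/1-vehicle, 450 FPKM in WT-RGFP109 and 322 FPKM in R6/1-RGFP109. Each distance rests on 4 group values.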

How the data were processed

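The authors aligned single-end RNA-seq reads to the mm10 RefSeq transcriptome with STAR 2.5.0b and estimated FPKM with Cufflinks 2.2.1, per the labels and the study's methods. Cuffdiff was run by the authors for every pairing of groups, which gave the 6 deposited tables, where a gene has a single FPKM for each group, pooled over its libraries. The fold changes on the log2 scale, test statistics, p-values and q-values in the deposited tables are the authors' own comparisons and were not used. The deposited status column, which has no numeric unit, served only for its mark of too few alignments. Depth per library is unknown, so no interval or detection limit is given.

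Genes were compared as log2(FPKM + 0.05) within the table of each pair, with a minimum of 0.1 FPKM in at least 1 group and a fold of 0.5. The pseudocount and minimum are those of the study's gene set analysis, and the fold is the one it used together with a q-value, so the rule here, on the fold alone, is not the study's own. Levels were geometric means over 3 tables. All members were named, with pathway genes past the fold in any of 5 comparisons and the 5 nearest profiles of Adora1 and Adora2a. Marker lists of neuron types, glia, vessels, meninges, choroid plexus and neocortex are given by counts. The members and lists were chosen with earlier results of these data known. The ratio code was tested on simulated data. Locus coordinates are those of the tables, with 1 added to the start, and promoter windows came from RefSeq (GRCm38.p6). Other settings tried were the pseudocount, the filter, the fold, median centring and ratios taken through the other groups. Calculations ran under Python 3.11.15 with numpy 2.4.6, matplotlib 3.10.9 and pandas 2.3.3.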

Additional observations from a re-analysis of the deposited data

How the results depend on the processing

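No paired analysis was possible because each deposited table holds 1 pooled value per group. Leaving out single libraries was not run for that reason, and values of single libraries from elsewhere were not used here. The number of members past the fold moved with the threshold. The share of all genes past the fold was computed only at 0.5 with 0.05 FPKM added. Counts at other settings therefore show only how the calls depend on the settings, and nothing particular to these genes. At a log2 ratio above 1 it was 1 of 8 (Adora2a) for R6/1-vehicle against WT-vehicle and for R6/1-RGFP109 against WT-vehicle, where 2 and 5 were past 0.5. Above 0.25 it was 6 for the vehicle genotype comparison, 7 for the RGFP109 genotype comparison and 1 (Adora3) for RGFP109 in R6/1 mice, where 2, 3 and 0 were past 0.5. With a pseudocount of 1 FPKM the RGFP109 genotype comparison kept 1 (Adora2a) of 3, R6/1-RGFP109 against WT-vehicle kept 2 (Adora1 and Adora2a) of 5, and the difference between the treatment effects had 0 in place of 1. With no pseudocount, RGFP109 in R6/1 mice had 1 (Adora3) in place of 0, and Ada was added, as higher in R6/1, in the vehicle (3 in place of 2, at 0.50) and the RGFP109 (4 in place of 3, at 0.51) genotype comparisons. Adora2a stayed past the fold in the 3 comparisons of R6/1 with wild type under every setting tried. Of 233 recomputed single values, 222 moved by no more than 0.1 (log2) and 11 moved further. These 11 all came with a pseudocount of 1 FPKM, where 29 others stayed. The filter settings leave a ratio unchanged by construction, but they can remove a member. With a minimum of 1 FPKM, Adora3 dropped out, which left 2 of 7 members past the fold between the RGFP109 groups. For R6/1-RGFP109 against WT-vehicle it left 4 of 7. Centring, or going through the other groups, shifts all genes by nearly the same small amount. Values under those settings could hardly move and say little about stability. Of the values past the fold 0 changed sign, whereas Adk, near 0, did so for R6/1-RGFP109 against WT-vehicle (-0.004, and 0.01 when centred on the median or taken through the other groups). The low levels of Adora3 and Ada limit their values most.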
